A study of Mus musculus with 18 samples.

Results

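Insulin and insulin-like growth factor 1 (IGF-1) act on cells through a short chain of proteins, and glucose itself is read by a separate pair of transcription factors with a small set of target genes. The 10 genes described here come from both arms and were chosen by name: the receptors Insr and Igf1r, the ligand Igf1, the adaptors Irs1 and Irs2, the transcription factors Foxo1 and Foxo3, and the glucose-responsive set of Mlxip, Txnip and Arrdc4. Each of the 10 names matched 1 line among the 19326 gene lines of a table of mouse spleen RNA sequencing, and all 10 were above 0 in every library. All 10 also passed the filter for testing, which asked for at least 1 RPKM (a read count set relative to transcript length and to the library's mapped reads) in at least 3 libraries and kept 12905 genes. Only Irs1 fell under 1 RPKM in some libraries.

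The spleen series explored the effects of a gut microbiota transplant in animals injected with streptozotocin (STZ), a compound that kills pancreatic beta cells and is used as a model of type 1 diabetes. All 18 libraries came from spleens of ICR mice, an outbred stock, at 10 weeks of age, with 3 libraries in each of 6 groups, and the study used males. Con mice had a regular diet and saline, and A10 mice were given alginate oligosaccharide (AOS), a short sugar chain cut from a seaweed polymer, at 10 mg/kg. STZ mice received a single dose of STZ, and STZ-A10 mice received STZ and AOS at 10 mg/kg. A10-FMT and Con-FMT mice received STZ and, by mouth, gut content from donors given AOS at 10 mg/kg or from control donors, and the donor material was pooled within each donor group, so that the 3 libraries of a transplanted group share 1 inoculum. The 12 libraries of the last 4 groups are called STZ-injected, and the 6 of Con and A10 not injected. The sources used here do not say which library came from which animal, so the p-values measure the spread between these libraries, which may in part be technical.

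When insulin or IGF-1 binds its receptor, the receptor phosphorylates IRS1 and IRS2, and the signal passes through PI3 kinase to AKT, which keeps FOXO transcription factors out of the nucleus. When glucose enters a cell, the MLXIP protein (MondoA), or its relative ChREBP, pairs with MLX, moves into the nucleus and binds paired E-box-like half-sites in its target genes, of which Txnip and Arrdc4 are the best known. TXNIP and ARRDC4 are arrestin-like proteins that lower glucose uptake, and in lymphocytes FOXO1 maintains the genes of naive T cells and of B cell development.

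The libraries differed in ways that the groups do not account for. The share of the summed RPKM taken by 6 globin genes, which stands for red cells and their precursors, ran from 10.4% in STZ replicate 1 to 42.7% in A10-FMT replicate 3. The median log2 level of all genes tested was 3.76 in the first of these libraries and 3.32 in the second. Relations of members to the globin share hold this shift, and the share of all genes with a like r was not computed. A10-FMT replicate 3 also had the lowest summed RPKM of 8 B cell markers, at 559 against 1357 to 2623 in the other 17 libraries, and the lowest T cell sum, at 58.7. Con replicate 1 held the highest neutrophil sum, at 14483, and markers of exocrine pancreas reached a sum of 16856 in A10-FMT replicate 2. Values without A10-FMT replicate 3 or Con replicate 1 are given beside several of the fold changes that moved with them. Because RPKM holds no read counts, the depth is unknown. The most frequent low value among olfactory receptor genes, which spleen hardly transcribes, was 0.08 to 0.09 RPKM. Taken as 1 read on a transcript of 1 kb, this makes 1 RPKM worth 11.1 to 12.5 reads per kb. The reads behind the levels of Irs1 also depend on its transcript length, which the table does not give.

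Across STZ-injected and not injected libraries, none of the 10 members passed an adjusted p of 0.05 in the limma fit, against 3.04% of all genes tested (392 of 12905). Txnip and Arrdc4 (higher) and Igf1 (lower) were the 3 members with an unadjusted p under 0.05, against 21.7% of all genes (2806 of 12905). The median log2 fold change of the 10 members was 0.03, and that of all genes tested was -0.07. The glucose-responsive genes are described first. The plot of the members by library shows each value.

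**Figure D1:**
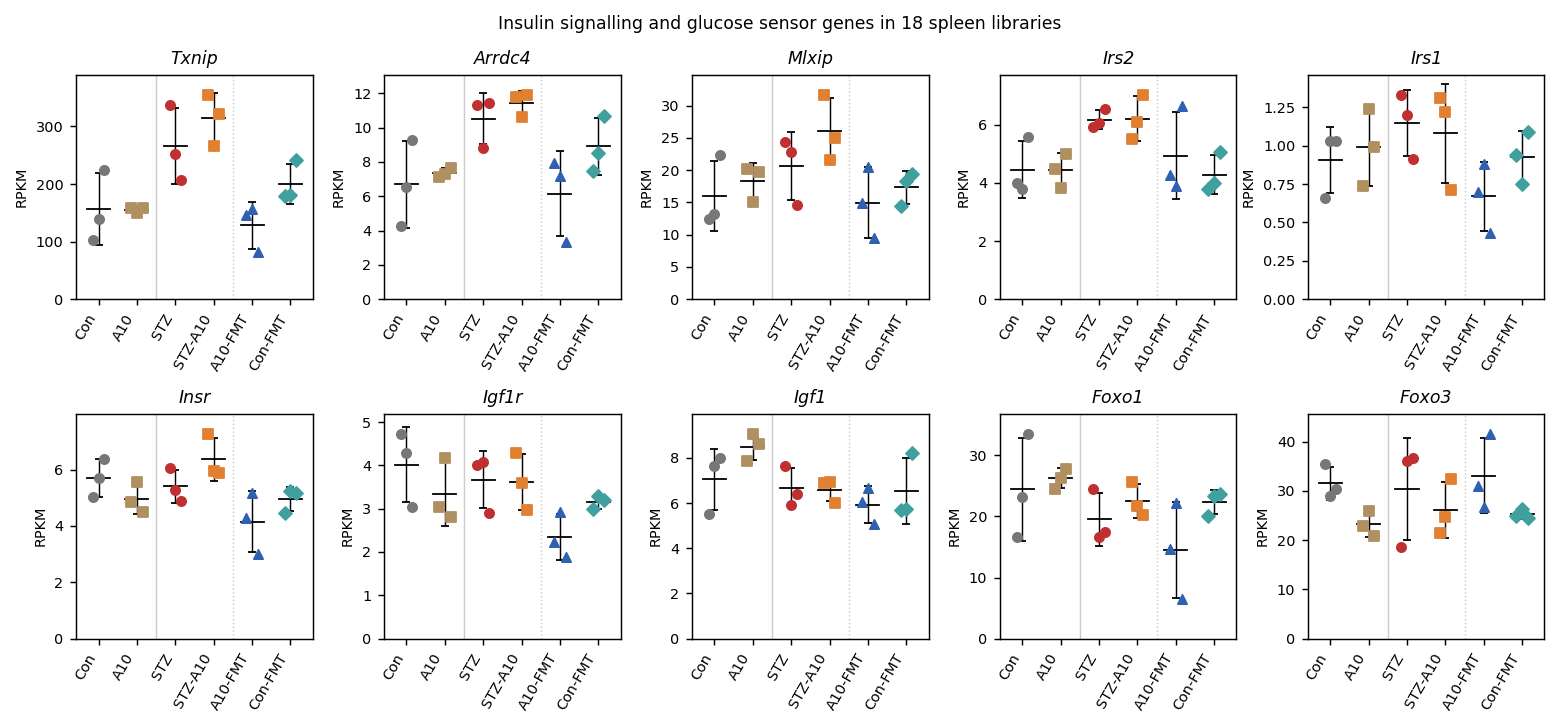
RPKM of the 10 genes (vertical axis, starting at 0) in each of the 18 spleen libraries by group (horizontal axis). Points are libraries, with replicates 1 to 3 from left to right, black lines are group means with SD, the solid grey line separates the groups not injected from the STZ-injected groups, and the dotted line the transplanted groups. Txnip, Arrdc4 and Mlxip have their highest group means in STZ and STZ-A10 and their lowest in A10-FMT.

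Txnip was the most abundant member and the one with the largest difference. It lies on chromosome 3 at 96557957 to 96561883 on the plus strand (GRCm38, GENCODE M21). Its promoter is shown because it holds the paired sites that MondoA and ChREBP are known to bind. In the 250 bases before the RefSeq start (chr3:96557707-96557956, plus strand, GRCm38.p6), capitals mark the forkhead motif GTAAACA and a pair of half-sites of the form CACGNG that lie 5 bases apart. The Arrdc4 window (chr7:68749239-68749488, minus strand) is set beside it with the canonical E-box CACGTG in capitals.
Txnip: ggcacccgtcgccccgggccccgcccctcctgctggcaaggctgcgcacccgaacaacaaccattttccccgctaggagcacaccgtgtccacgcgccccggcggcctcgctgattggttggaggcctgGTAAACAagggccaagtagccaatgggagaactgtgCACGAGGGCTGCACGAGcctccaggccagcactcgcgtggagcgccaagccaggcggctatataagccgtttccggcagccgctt
Arrdc4: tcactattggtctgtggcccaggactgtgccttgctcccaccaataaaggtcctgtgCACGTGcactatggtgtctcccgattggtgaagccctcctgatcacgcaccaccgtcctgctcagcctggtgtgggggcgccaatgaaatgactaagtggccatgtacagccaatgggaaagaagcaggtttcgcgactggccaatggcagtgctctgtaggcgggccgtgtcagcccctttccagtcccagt

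The motifs were searched on both strands in the 300 bases from 250 before to 50 after the start of 32851 RefSeq windows. The pair of CACGNG half-sites 5 bases apart, in which the 2 half-sites may face either way, occurred in 27 windows (0.0822%), and among the members only in Txnip, where it starts 85 bases before the start. CACGNG alone, which also counts each CACGTG, was in 27.5% of windows, and GTAAACA was in 3.65%, among the members only in Txnip. CACGTG was in 7.15% of windows, and among the members in Arrdc4 (193 bases before the start), Irs1 (115 bases before) and Irs2 (44 bases before). The tables hold windows for 9 of the 10 members, all but Insr. A match describes letters and does not show that a factor binds there.

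TXNIP binds thioredoxin and promotes removal of glucose transporters from the cell surface. The RPKM of Txnip was 103, 140.0 and 225 in the 3 Con libraries (replicates 1, 2 and 3 in this order, as in all lists of 3 values here) and 159, 150 and 159 in A10. It was 337, 253 and 206 in STZ and 355, 267 and 322 in STZ-A10. It was 147, 156 and 82.0 in A10-FMT and 179, 181 and 241 in Con-FMT. All 6 untransplanted injected libraries were above 5 of the 6 libraries not injected, and the exception was Con replicate 3, which exceeded STZ replicate 3. The 6 transplanted libraries lay in or below the range of the libraries not injected, except Con-FMT replicate 3.

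By group mean the order of Txnip was STZ-A10 (314 ± 44.4 RPKM, SD, n = 3), STZ (265 ± 66.0), Con-FMT (200 ± 35.1), Con (156 ± 62.4), A10 (156 ± 5.03) and A10-FMT (128 ± 40.3). Neighbours in this order were not separated: STZ-A10 differed from STZ by a log2 fold change of 0.26 (95% confidence interval -0.32 to 0.84), and Con-FMT from STZ by -0.39 (-0.97 to 0.19). The summed RPKM of exocrine pancreas markers also differed between these groups, with 933 to 6531 in STZ and STZ-A10 against 21.8 to 1598 in Con and A10. The sum was 1246 to 2181 in Con-FMT and 140 to 16856 in A10-FMT, and its part in the level of Txnip was not tested. Over all STZ-injected against not injected libraries the log2 fold change of Txnip was 0.47 (SE 0.17, adjusted p = 0.124). With 1 library left out it ran from 0.34 (without Con replicate 1) to 0.62 (without Con replicate 3).

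The STZ effect on Txnip could be measured in 2 separate pairs of groups that share no library. STZ exceeded Con by 0.81 on the log2 scale (SE 0.27, adjusted p = 0.229), with 1 overlapping library on each side. This difference was 0.55 without Con replicate 1 and 1.11 without Con replicate 3. STZ-A10 exceeded A10 by 1.00 (SE 0.27, adjusted p = 0.162) with no overlap, where 7.69% of all genes were higher without overlap. The difference between these effects, tested as an interaction, was 0.19 (95% confidence interval -0.63 to 1.01, adjusted p = 1.00), an interval wide enough to hold an effect of the size seen in either pair. No member was called in STZ against Con, where 0.163% of all genes were (21 genes), or in STZ-A10 against A10, where 0.0542% were (7 genes). In the interaction no gene of 12905 was called by limma, and 369 (2.86%) had an unadjusted p under 0.05, none of them a member.

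A comparison chosen after the data were seen set the mean of STZ and STZ-A10 against the mean of Con and A10. There Txnip rose by 0.90 on the log2 scale (SE 0.19, 95% confidence interval 0.49 to 1.31, adjusted p = 0.0223). It was the only member called, against 3.3% of all genes called (426 of 12905). The call was narrow: the adjusted p rose to between 0.0516 and 0.0592 when Con replicate 2, A10 replicate 2, A10 replicate 3, STZ replicate 1, STZ replicate 2 or STZ-A10 replicate 3 was left out, and the fold change over all 18 such fits ran from 0.77 to 1.05.

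The transplanted groups were set against the untransplanted injected groups next. A10-FMT differed from STZ in Txnip by -1.07 on the log2 scale (SE 0.27, adjusted p = 0.145), with no overlap, and this shares the STZ libraries with the comparisons above. The adjusted p missed the threshold, and 1 gene (0.00775%) was called in that comparison, where 12.1% of all genes were lower without overlap. The median of all genes tested was itself -0.15 in A10-FMT against STZ, and between -0.17 and -0.18 when A10-FMT was set against Con-FMT or Con, so that fold changes of A10-FMT are read against that shift. Without A10-FMT replicate 3, the library that stood apart, the fold change of Txnip against STZ was -0.78. Taking both transplanted groups against both untransplanted injected groups, again chosen after the data were seen, Txnip differed by -0.86 (SE 0.19, adjusted p = 0.0527). No member was called at 0.05, and 0.674% of all genes were (87 genes). This sits at the threshold: Txnip was called, with an adjusted p between 0.0265 and 0.0359, when A10-FMT replicate 2, STZ replicate 3, Con replicate 1 or Con replicate 3 was left out, and at -0.71 was not called without A10-FMT replicate 3.

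Arrdc4, the arrestin-domain relative of Txnip that also limits glucose uptake, was far less abundant and had the same order of group means among the injected groups. Its RPKM was 4.26, 6.53 and 9.28 in Con, 7.10, 7.31 and 7.65 in A10, 11.3, 8.79 and 11.4 in STZ and 11.8, 10.6 and 11.9 in STZ-A10. It was 7.94, 7.16 and 3.32 in A10-FMT and 7.48, 8.53 and 10.7 in Con-FMT. All 3 STZ-A10 libraries exceeded every library not injected, while Con replicate 3 lay between the STZ libraries. The share of all genes with STZ-A10 above every library not injected was not computed. Arrdc4 had a log2 fold change of 0.33 over all STZ-injected libraries (SE 0.15, adjusted p = 0.229) and 0.60 in the untransplanted ones (SE 0.18, adjusted p = 0.0762). Without Con replicate 1 these were 0.20 and 0.48. The fold change was 0.63 in STZ against Con, 0.57 in STZ-A10 against A10 and -0.75 in A10-FMT against STZ, none of them called (adjusted p from 0.234 to 0.443). The first of these was 0.38 without Con replicate 1, and the last was -0.42 without A10-FMT replicate 3. In the untransplanted comparison Arrdc4 passed the threshold without Con replicate 3 (0.72, adjusted p = 0.0364) or without A10-FMT replicate 3 (0.60, adjusted p = 0.0182).

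Mlxip encodes MondoA, the glucose-sensing factor itself. Its RPKM was 12.4, 13.2 and 22.3 in Con, 20.2, 15.1 and 19.7 in A10, 24.4, 22.8 and 14.6 in STZ and 31.7, 21.6 and 25.0 in STZ-A10. It was 14.9, 20.5 and 9.47 in A10-FMT and 14.4, 18.3 and 19.3 in Con-FMT. Of the pairs of groups compared here, only STZ-A10 and A10 did not overlap, where 7.69% of all genes were higher without overlap. Mlxip had a log2 fold change of 0.17 over all STZ-injected libraries (SE 0.16, adjusted p = 0.568), 0.42 in the untransplanted ones (SE 0.19, adjusted p = 0.250) and -0.51 in transplanted against untransplanted (SE 0.19, adjusted p = 0.178). The first was 0.09 without Con replicate 1, and the last was -0.37 without A10-FMT replicate 3.

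Within libraries the 3 glucose-responsive genes moved together. Over the 18 libraries Pearson r between the log2 levels of Arrdc4 and Txnip was 0.93, and Spearman rho was 0.91 (permutation p = 1e-05 for both, the lowest value open to 100000 permutations, adjusted p = 4.2e-05 and 7e-05 over 21 relations). The r was 0.91 without STZ-A10 replicate 1 and A10-FMT replicate 3, the libraries farthest from the median of Txnip, and 0.86 after each group's mean was taken away. The permutations crossed groups, so their p-values also take in differences between groups. For Mlxip and Txnip the r was 0.88 (rho 0.84, permutation p = 1e-05 and 4e-05, adjusted p = 4.2e-05 and 0.00014), 0.79 without the same libraries and 0.89 within groups. The libraries share their composition: Txnip had an r of -0.53 with the globin share (rho -0.42, permutation p = 0.026 and 0.086, adjusted p = 0.049 and 0.14) and of -0.70 within groups. Without STZ replicate 1 and STZ-A10 replicate 1, the libraries farthest in globin share, it was -0.26, so that the relation over all libraries leans on them. With the summed B cell markers Txnip had an r of 0.51 (rho 0.31, permutation p = 0.03 and 0.21, adjusted p = 0.053 and 0.27), 0.27 without STZ replicate 2 and A10-FMT replicate 3, and 0.81 within groups. With the globin share as a covariate, a setting added after the data were seen, the fold change of Txnip over all STZ-injected libraries was 0.60 (adjusted p = 0.0252), and without Con replicate 3 it was 0.62 (adjusted p = 0.0496). Both passed the threshold that the value of 0.47 had missed. In the other 17 of the 18 fits without 1 library Txnip was not called, and without Con replicate 1 its fold change was 0.34.

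**Figure D2:**
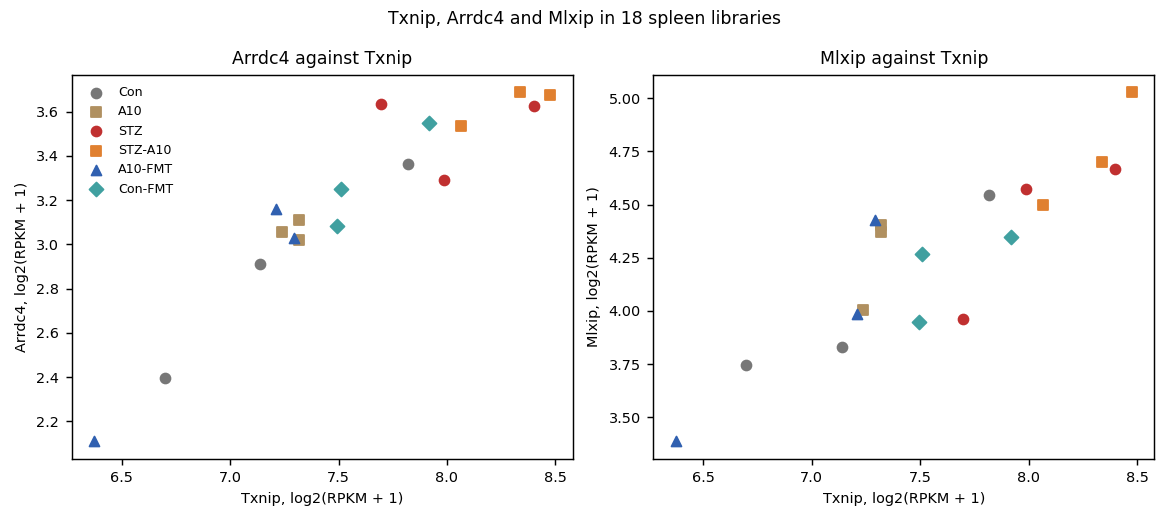
Arrdc4 (left) and Mlxip (right) against Txnip, each as log2(RPKM + 1), with 1 point for each of the 18 libraries and the group by colour and shape. The STZ and STZ-A10 libraries lie to the right, A10-FMT replicate 3 lies lowest on both Txnip and Arrdc4, and the r is 0.93 on the left and 0.88 on the right.

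The tested genes whose log2 levels followed Txnip most closely over the 18 libraries, out of 12904 others, were Pik3ip1 (r = 0.96), Fzd1 (0.94) and Sema6d (0.94). Arrdc4 was therefore close to, but not among, the 3 nearest. Pik3ip1 encodes an inhibitor of PI3 kinase.

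Irs2 is the adaptor that carries the signal from the receptor to PI3 kinase in liver, beta cells and macrophages, and it was the adaptor with the clearer level in spleen. Its RPKM was 3.99, 3.80 and 5.58 in Con, 4.48, 3.82 and 4.98 in A10, 5.92, 6.05 and 6.55 in STZ and 5.50, 6.09 and 7.02 in STZ-A10. It was 4.26, 3.88 and 6.64 in A10-FMT and 3.80, 3.99 and 5.06 in Con-FMT. The 3 STZ libraries lay above the 3 Con libraries and above the 3 Con-FMT libraries, and the 3 STZ-A10 libraries above the 3 A10 libraries, whereas A10-FMT replicate 3 reached the level of STZ. Irs2 was the only member without overlap between STZ and Con, where 5.77% of all genes were higher in STZ without overlap. In STZ-A10 against A10, 7.69% of all genes were higher without overlap.

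The log2 fold change of Irs2 was 0.41 in STZ against Con (SE 0.17, adjusted p = 0.362), 0.41 in STZ-A10 against A10 (SE 0.17, adjusted p = 0.405) and -0.45 in Con-FMT against STZ (SE 0.17, adjusted p = 0.916). In the last comparison 6.22% of all genes were lower without overlap, and among the members only Irs2. Over the untransplanted libraries the value for Irs2 was 0.41 (SE 0.12, 95% confidence interval 0.15 to 0.66, adjusted p = 0.0735). Without A10-FMT replicate 3, which enters that fit only through the shared spread, the fold change was the same and the adjusted p was 0.0229, and without Con replicate 3 it was 0.48 (adjusted p = 0.0408). Over all STZ-injected libraries it was 0.22 (SE 0.10, adjusted p = 0.230). The sites of the E-box in the Irs2 and Irs1 promoters are shown for comparison with Txnip, as 60 bases around CACGTG in capitals (chr8:11008941-11009000 and chr1:82291522-82291581, both minus strand, GRCm38.p6).
Irs2: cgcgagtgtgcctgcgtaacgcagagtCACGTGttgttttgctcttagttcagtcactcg
Irs1: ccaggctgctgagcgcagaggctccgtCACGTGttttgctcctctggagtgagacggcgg

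Irs2 did not simply follow Txnip. The r between them was 0.46 (rho 0.52, permutation p = 0.055 and 0.03, adjusted p = 0.079 and 0.062), but 0.82 without STZ-A10 replicate 1 and A10-FMT replicate 3, and -0.07 within groups. Its relation to the summed RPKM of red pulp macrophage markers, the resident iron-recycling macrophages of the spleen, had an r of 0.40 (rho 0.49, permutation p = 0.1 and 0.042, adjusted p = 0.12 and 0.074), 0.81 without the same libraries and -0.13 within groups. The macrophage sum was 564 to 744 in the 6 STZ and STZ-A10 libraries and 405 to 572 in Con and A10, and its part in the level of Irs2 was not tested.

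Irs1, the adaptor best known from muscle and fat, had the lowest level of the 10 members. Its RPKM was 0.66, 1.03 and 1.03 in Con, 0.74, 1.24 and 0.99 in A10, 1.33, 1.2 and 0.91 in STZ, 1.31, 1.22 and 0.71 in STZ-A10, 0.70, 0.88 and 0.43 in A10-FMT and 0.94, 0.75 and 1.09 in Con-FMT. Of the pairs of groups compared here, only A10-FMT and STZ did not overlap. There the log2 fold change of Irs1 was -0.37 (SE 0.16, adjusted p = 0.271), and the members without overlap were Irs1, Txnip and Arrdc4, all lower, where 12.1% of all genes were lower without overlap. Over all STZ-injected libraries Irs1 differed by -0.00 (SE 0.10), and this sign turned with the scaling and with the library left out.

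Insr, the insulin receptor, and Igf1r, the IGF-1 receptor, are both membrane tyrosine kinases. The RPKM of Insr was 5.04, 5.71 and 6.38 in Con, 4.87, 5.55 and 4.48 in A10, 6.06, 5.29 and 4.90 in STZ, 7.26, 5.97 and 5.90 in STZ-A10, 4.29, 5.17 and 3.01 in A10-FMT and 4.46, 5.25 and 5.16 in Con-FMT. The RPKM of Igf1r was 4.72, 4.29 and 3.04 in Con, 3.05, 4.18 and 2.80 in A10, 4.02, 4.07 and 2.91 in STZ, 4.28, 3.60 and 2.97 in STZ-A10, 2.23, 2.93 and 1.89 in A10-FMT and 2.99, 3.29 and 3.19 in Con-FMT. For both receptors STZ and Con overlapped, and A10-FMT had the lowest mean.

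Neither receptor passed the test for STZ injection. Over all STZ-injected libraries the log2 fold change of Insr was -0.04 (95% confidence interval -0.23 to 0.15), which became 0.04 after quantile normalization and 0.03 after median centring, and that of Igf1r was -0.16 (-0.38 to 0.06). STZ-A10 exceeded A10 in Insr without overlap, by 0.30 (SE 0.15, adjusted p = 0.509). In STZ-A10 against A10 the members without overlap were 6 of 10, namely Insr, Irs2, Txnip, Arrdc4 and Mlxip higher and Igf1 lower, where 7.69% of all genes were higher and 14.9% lower without overlap. The interaction of STZ and AOS for Insr was 0.37 (95% confidence interval -0.07 to 0.81, adjusted p = 1.00).

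A10-FMT differed from Con in Igf1r by -0.58 on the log2 scale (SE 0.17, adjusted p = 0.101), with no overlap, and in Insr by -0.40 (SE 0.15, adjusted p = 0.128). In this comparison no member was called, 0.0697% of all genes were (9 genes), and 15.2% of all genes were lower without overlap. Without A10-FMT replicate 2 the values were -0.70 for Igf1r (adjusted p = 0.0239) and -0.54 for Insr (adjusted p = 0.0266). Without A10-FMT replicate 3 the value for Insr was -0.23. The transplanted against the untransplanted injected libraries gave -0.32 for Insr (SE 0.10, adjusted p = 0.140), -0.31 for Igf1r (SE 0.12, adjusted p = 0.192) and -0.23 for Irs1 (SE 0.11, adjusted p = 0.268). With A10-FMT replicate 3 left out, Insr was at -0.23 and Irs1 at -0.18 there. In that comparison the median of the 10 members was -0.32, and the median of all genes tested was -0.08.

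**Figure D3:**
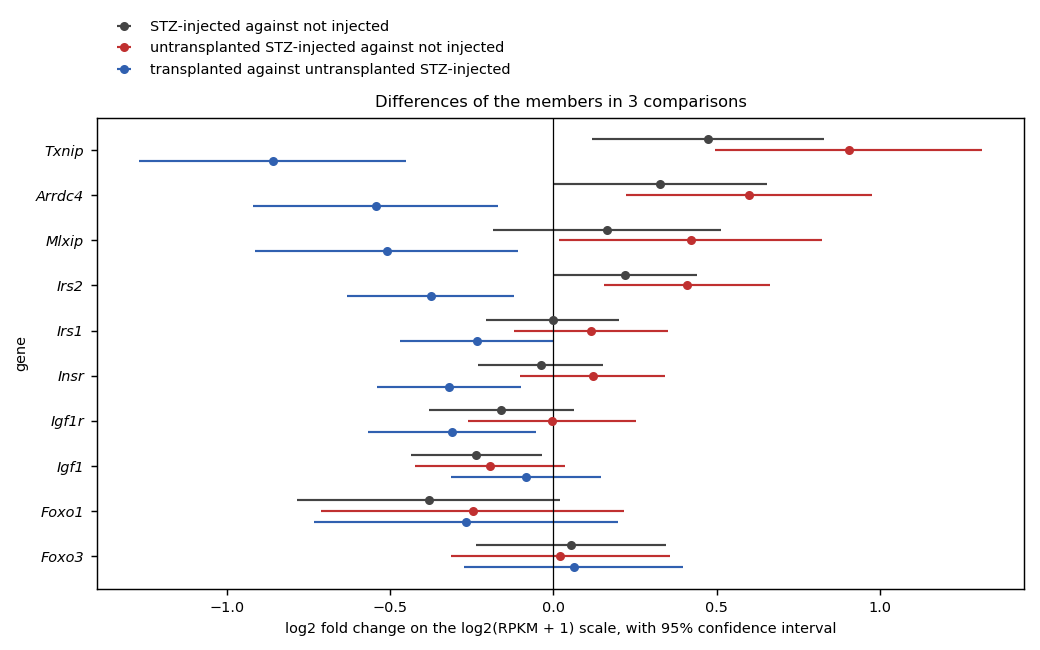
Log2 fold change on the log2(RPKM + 1) scale (horizontal axis) of the 10 genes (vertical axis) in 3 comparisons, as points with 95% confidence intervals. The intervals of Txnip are 0.49 to 1.31 for untransplanted STZ-injected against not injected libraries and -1.27 to -0.45 for transplanted against untransplanted ones, which share the STZ and STZ-A10 libraries. Both comparisons were chosen after the data were seen, and the intervals are not adjusted. At an adjusted p of 0.05 by limma, Txnip was not called in the second, or in STZ-injected against not injected libraries.

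Igf1, the ligand, is made mostly by liver and in tissues by macrophages and stromal cells. Its RPKM was 5.51, 7.66 and 8 in Con, 7.87, 9.05 and 8.60 in A10, 7.65, 5.93 and 6.40 in STZ, 6.88, 6.93 and 5.99 in STZ-A10, 6.07, 6.67 and 5.07 in A10-FMT and 5.68, 5.73 and 8.23 in Con-FMT. A10 had the highest group mean of Igf1, and its libraries lay above every STZ-A10 library. In STZ-A10 against A10, 14.9% of all genes were lower without overlap. Over all STZ-injected libraries the log2 fold change of Igf1 was -0.24 (SE 0.09, adjusted p = 0.162), and it was -0.19 in the untransplanted ones (SE 0.11, adjusted p = 0.378) and -0.32 in STZ-A10 against A10 (SE 0.15, adjusted p = 0.495).

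Among the libraries Igf1 went down as the globin share went up, with an r of -0.74 (rho -0.77, permutation p = 0.00059 and 0.00039, adjusted p = 0.0017 and 0.0012), -0.87 without STZ replicate 1 and STZ-A10 replicate 1, and -0.71 within groups. The median log2 level of all genes tested was also lower at the largest globin share (3.32) than at the smallest (3.76). Traces of liver were present in some libraries. The hepatocyte marker sum was 8.05 to 26.5 RPKM in STZ and STZ-A10, 28.6 to 291 in Con and A10 and 16.5 to 377 in the transplanted groups. It was highest in A10-FMT replicate 3. Igf1 had an r of 0.05 with that sum (rho 0.06, permutation p = 0.86 and 0.82, adjusted p = 0.86 and 0.86), and the part of liver RNA in its level was not tested. With the red pulp macrophage sum it had an r of 0.31 (rho 0.27, permutation p = 0.21 and 0.29, adjusted p = 0.24 and 0.36), 0.14 without STZ-A10 replicate 1 and A10-FMT replicate 3, and 0.67 within groups. Among the genes nearest to Igf1 in pattern were Gdi2 (r = 0.92) and Snx6 (0.89).

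Foxo1 and Foxo3 are the FOXO factors held in check by AKT, and their levels went with the cell markers of the libraries in opposite directions. The RPKM of Foxo1 was 16.7, 23.3 and 33.5 in Con, 24.6, 26.4 and 27.8 in A10, 24.5, 16.7 and 17.4 in STZ, 25.6, 21.7 and 20.2 in STZ-A10, 14.7, 22.2 and 6.52 in A10-FMT and 20.1, 23.4 and 23.7 in Con-FMT. The lowest value was that of A10-FMT replicate 3. Over the 18 libraries Foxo1 had an r of 0.95 with the summed B cell markers (rho 0.87, permutation p = 1e-05 and 2e-05, adjusted p = 4.2e-05 and 8.4e-05) and of 0.93 with the T cell sum (rho 0.89, permutation p = 1e-05 for each, adjusted p = 4.2e-05 and 7e-05). Without STZ replicate 2 and A10-FMT replicate 3 these were 0.83 and 0.80, and within groups 0.94 and 0.94. In whole spleen, fewer cells of a type and less RNA per cell cannot be told apart. The genes nearest to Foxo1 were Ncoa3 (r = 0.99), Traf3 (0.99) and Lbh (0.98).

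The log2 fold change of Foxo1 was -0.38 over all STZ-injected libraries (SE 0.19, adjusted p = 0.253), -0.25 in the untransplanted ones (SE 0.22, adjusted p = 0.619) and -0.27 in transplanted against untransplanted ones (SE 0.22, adjusted p = 0.502). A10-FMT differed from Con by -0.81 (SE 0.31, adjusted p = 0.130) and from Con-FMT by -0.74 (SE 0.31, adjusted p = 0.204). No gene was called in A10-FMT against Con-FMT by limma (0%), where 3040 (23.6%) had an unadjusted p under 0.05, among them Foxo1 and Txnip (-0.68, adjusted p = 0.204). Without A10-FMT replicate 2 the values for Foxo1 were -1.18 against Con (adjusted p = 0.0208) and -1.10 against Con-FMT (adjusted p = 0.0351), and these rest on A10-FMT replicates 1 and 3, which had the highest globin shares of the 18 libraries (39.5% and 42.7%). Without A10-FMT replicate 3, by contrast, the values for Foxo1 were -0.36 against Con and -0.29 against Con-FMT, that of Txnip against Con-FMT was -0.39, and Foxo1 in transplanted against untransplanted libraries was -0.04, none of them called.

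Foxo3 was higher in libraries with more globin RNA. It is the FOXO factor known to act in maturing red cell precursors. The RPKM of Foxo3 was 35.4, 28.9 and 30.3 in Con, 22.9, 25.95 and 20.8 in A10, 18.5, 36.0 and 36.6 in STZ, 21.3, 24.8 and 32.4 in STZ-A10, 31.0, 26.7 and 41.5 in A10-FMT and 24.9, 26.3 and 24.5 in Con-FMT. Its lowest level, in STZ replicate 1, was in the library with the smallest globin share, and its highest, in A10-FMT replicate 3, in the library with the largest. The r with the globin share was 0.86 (rho 0.84, permutation p = 1e-05 and 2e-05, adjusted p = 4.2e-05 and 8.4e-05), 0.79 without STZ replicate 1 and STZ-A10 replicate 1, and 0.91 within groups. For Foxo1 the r with the globin share was -0.75 (rho -0.89, permutation p = 7e-05 and 1e-05, adjusted p = 0.00024 and 7e-05), -0.84 without those libraries and -0.68 within groups.

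**Figure D4:**
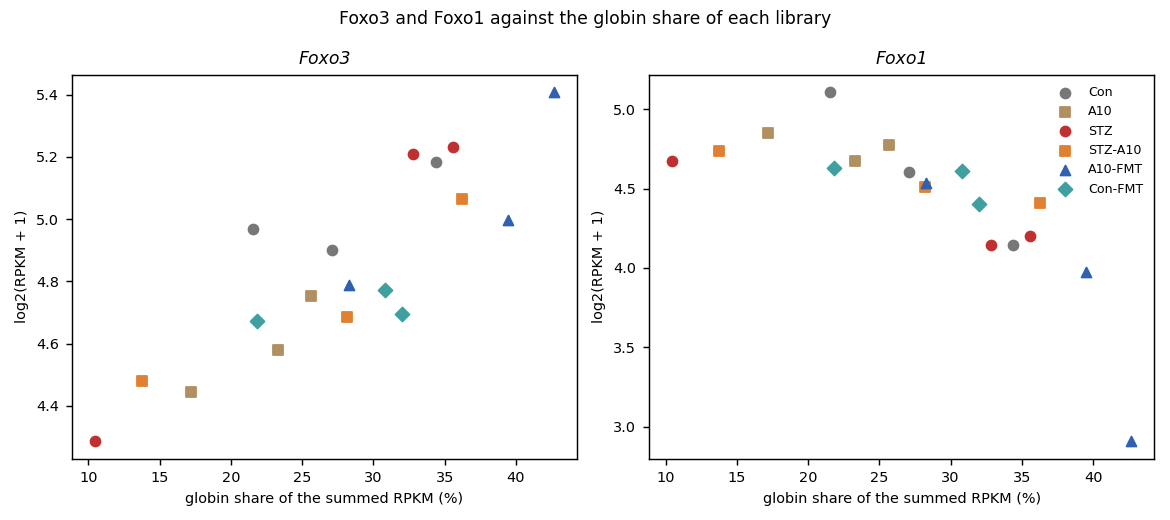
Foxo3 (left) and Foxo1 (right) as log2(RPKM + 1) against the globin share of the summed RPKM in percent, with 1 point for each of the 18 libraries and the group by colour and shape. Foxo3 goes up with the globin share (r = 0.86) and Foxo1 goes down (r = -0.75), and libraries of 1 group are spread along the trend.

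Foxo3 did not separate the STZ-injected from the other libraries, with a log2 fold change of 0.05 (95% confidence interval -0.24 to 0.34). With the globin share as a covariate it was -0.08. The lower level in A10 than in Con, -0.43 (SE 0.22, adjusted p = 0.989), came without overlap, where 4.81% of all genes were lower without overlap, and the globin shares were 17.2% to 25.7% in A10 and 21.5% to 34.4% in Con. Over the 13 settings other than leaving out 1 library, including the globin share as a covariate, that difference ran from -0.48 to -0.255. The part of the globin share in it was not tested beyond this. Foxo3 also did not overlap between Con-FMT and Con, where it was lower (5.52% of all genes were lower without overlap), or between A10-FMT and Con-FMT, where it was higher (5.35% of all genes were). In A10-FMT against Con-FMT the other members without overlap were Igf1r and Txnip, both lower, as were 23.9% of all genes.

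The other genes of these pathways were taken from lists of known members, chosen with earlier results of the data known. Of 35 tested genes of insulin and IGF signalling, none rose and 1 fell in STZ-injected against not injected libraries, where 0.814% of all genes rose and 2.22% fell. This was Igfbp2, a secreted binding protein that holds IGF-1 and IGF-2. Its RPKM was 11.8 to 17.5 in the 6 libraries not injected, 1.96 to 6.90 in the 6 STZ and STZ-A10 libraries and 8.09 to 17.6 in the 6 transplanted libraries. The untransplanted injected libraries thus lay below all others, and the share of all genes set apart in this way was not computed. Igfbp2 is also a liver gene. The hepatocyte sums were 8.05 to 26.5 RPKM in the same 6 libraries, 28.6 to 291 in those not injected and 16.5 to 377 in the transplanted ones. In A10-FMT the hepatocyte sums were 121, 107 and 377, and Igfbp2 was 8.49, 17.6 and 8.09 RPKM. In Con-FMT the sums were 32.6, 52.9 and 16.5, and Igfbp2 was 15.8, 15.95 and 10.5 RPKM. No relation of Igfbp2 to this sum was computed. The part of liver RNA in the level of Igfbp2 was not tested. The log2 fold change of Igfbp2 was -0.77 over all STZ-injected libraries (SE 0.19, adjusted p = 0.0443), and this call was kept in 3 of the 18 fits without 1 library, those without STZ replicate 1, STZ replicate 3 or A10-FMT replicate 2. Among the genes next by p, not called, were Akt2 (-0.15, adjusted p = 0.126) and Igf2r (-0.18, adjusted p = 0.129).

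Of 16 tested FOXO target genes, 1 rose and none fell. Pdk4, a kinase that turns off pyruvate dehydrogenase and is raised in fasting and diabetes, had an RPKM of 1.71, 2.88 and 2.65 in Con, 2.67, 2.97 and 2.86 in A10, 10.1, 13.9 and 4.13 in STZ and 14.7, 12.1 and 15.3 in STZ-A10. It was 2.65, 2.31 and 1.45 in A10-FMT and 2.52, 2.75 and 5.41 in Con-FMT. All 6 untransplanted injected libraries were above every library not injected, and 5 of the 6 transplanted libraries were within or below the range of the latter. The share of all genes without overlap between untransplanted injected and not injected libraries is not reported here. The log2 fold change of Pdk4 over all STZ-injected libraries was 0.88 (SE 0.19, adjusted p = 0.0266), and the call was lost without Con replicate 2, A10 replicate 1, A10 replicate 2 or A10 replicate 3 (highest adjusted p = 0.0812). Among those next by p, and not called, were Sesn1 (0.28, adjusted p = 0.0843) and Gadd45a (0.52, adjusted p = 0.114).

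Of 19 tested genes of glucose sensing and uptake, 2 rose and 2 fell. Klf10, a transcription factor induced by glucose through ChREBP, had an RPKM of 9.17 to 10.4 in the libraries not injected, 14.9, 13.5 and 14.1 in STZ, 13.6, 13.8 and 14.7 in STZ-A10, 10.9, 10.1 and 10.7 in A10-FMT and 10.8, 11.7 and 13.4 in Con-FMT. The STZ and STZ-A10 libraries lay above all the others, in a split looked at after the data were seen. The share of all genes set apart in this way was not computed. Its log2 fold change over all STZ-injected libraries was 0.32 (SE 0.06, adjusted p = 0.0128), and it was called in all 18 fits without 1 library (0.30 to 0.34).

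Slc2a8, the intracellular glucose transporter GLUT8, was 4.20 to 5.76 RPKM in the libraries not injected and 5.81 to 9.65 in the STZ-injected ones, with no overlap (0.542% of all genes had none) and a log2 difference of 0.36 (SE 0.09, adjusted p = 0.0466). Mlx, the partner of MondoA, was 30.2 to 33.5 RPKM in the libraries not injected and 24.2 to 29.6 in the STZ-injected ones, also with no overlap, and fell by 0.22 on the log2 scale (SE 0.05, adjusted p = 0.0416). Hk2, a hexokinase that commits glucose to glycolysis, fell by 0.45 on the log2 scale (SE 0.10, adjusted p = 0.0291), with 1.02 to 2.2 RPKM in the STZ-injected and 1.73 to 3.19 in the other libraries. The calls of Slc2a8, Mlx and Hk2 were kept in 3, 6 and 10 of the 18 fits without 1 library.

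In the comparisons chosen after the data were seen, the lists gave other counts. Of the 16 FOXO targets, 3 rose and none fell in untransplanted STZ-injected against not injected libraries, namely Pdk4, Sesn1 and Pik3ip1, where 1.37% of all genes rose and 1.93% fell. In transplanted against untransplanted libraries 4 of the 16 fell and none rose, namely the same 3 genes and Bcl2l11, where 0.55% of all genes fell and 0.124% rose. Sesn1 is a stress-induced inhibitor of mTORC1 signalling and Bcl2l11 encodes the pro-apoptotic protein BIM, and Pik3ip1 and Bcl2l11 are named here after their values were seen. Of the insulin and IGF genes, Igfbp2 alone fell in the first of these comparisons and alone rose in the second. Of the 19 genes of glucose sensing and uptake, Slc2a8 and Klf10 rose and Mlx and Hk2 fell in the first, and Klf10 alone fell in the second. The 2 comparisons share the STZ and STZ-A10 libraries. In the 18 fits without 1 library, Pdk4 was called each time in both. In the first, Sesn1, Igfbp2 and Klf10 were also kept in all 18, Slc2a8 in 16, Mlx in 11, Pik3ip1 in 9 and Hk2 in 3. In the second, Igfbp2 was kept in 7 of the 18, Sesn1, Pik3ip1 and Klf10 in 5 each and Bcl2l11 in 4, so that the count of FOXO targets that fell ran from 1 to 4.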

How the data were processed

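Mouse spleen RNA for 18 libraries was enriched for poly(A), sequenced on an Illumina instrument and deposited by the authors as RPKM per gene symbol. The paper's methods name SOAPaligner, and the submitters' processing notes name Bowtie 0.12.2 and mm10; the annotation is not given in the sources used here. RPKM holds no counts, so the depth is unknown and no count model was used. Of 19326 lines, 6 with repeated names were left out, 26 names had turned into dates and 377 genes were at 0 throughout. All columns belonged to a labelled sample (0 left over).

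Groups came from the labels. The test was a moderated linear model on log2(RPKM + 1), fitted with limma 3.58.1 and its mean-variance trend under R 4.3.3, so that fold changes of low genes are understated. Genes needed an RPKM of 1 in at least 3 libraries. A single fit over 18 libraries had 1 coefficient for each of 6 groups and gave 13 comparisons, 2 of them chosen after the data were seen. P-values are two-sided, with Benjamini-Hochberg adjustment over 12905 genes and a threshold of 0.05. The code was tested on simulated data. Relations over libraries used 100000 permutations of all 18 libraries without regard to group, so their p-values also take in differences between groups. No p-value was computed within groups. The pathway lists were named by at most the 4 genes of smallest p, and a few genes that the naming rules select are not reported here. The members, lists and tests were chosen with earlier results of these data known. Alternatives covered the pseudocount (0.1), the filter, the normalization, the trend, the libraries fitted, array weights, a replicate block and each library left out. Positions come from GENCODE M21 and sequences from RefSeq (GRCm38.p6), by symbol.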

Additional observations from a re-analysis of the deposited data

How the results depend on the processing

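Counts of called members were kept in 219 of 234 fits that left out 1 library and in 138 of 168 others. Most of these are counts of 0 that stayed at 0, because only the untransplanted comparison had a member called in the main fit. That count, 1, was kept in 10 of 18 fits that left out 1 library and in 5 of 13 others. Leaving out 1 library gave 0 to 1 called members for STZ-injected against not injected (1 without Con replicate 3, Txnip), 0 to 1 for A10-FMT against Con-FMT and 0 to 3 for A10-FMT against Con (both highest without A10-FMT replicate 2), 0 to 3 for the untransplanted comparison (3 without Con replicate 3 or A10-FMT replicate 3, namely Txnip, Arrdc4 and Irs2) and 0 to 1 for transplanted against untransplanted. The other comparisons stayed at 0.

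Array weights called 8 members in STZ-injected against not injected, 7 in STZ against Con, 5 in STZ-A10 against A10, 1 in the interaction, 5 in A10 against Con, 2 in STZ-A10 against STZ, 6 in A10-FMT against STZ, 4 in Con-FMT against STZ, 5 in A10-FMT against Con-FMT, 10 in A10-FMT against Con, 6 in Con-FMT against Con, 7 in the untransplanted comparison and 7 in transplanted against untransplanted. The weights ran from 0.0462 (A10-FMT replicate 3) to 424 (A10-FMT replicate 1) and their estimation did not converge, so these fits lean on few libraries. In STZ-injected against not injected, 1 member was called after median centring (Txnip), with the globin share as a covariate (Txnip), and with A10-FMT replicate 1 alone kept of its group and Con replicate 1 left out (Foxo1). In STZ-A10 against A10, 1 (Txnip) was called with only the groups compared in the fit, with the globin share, and with those 3 libraries left out. The untransplanted count was 2 (Txnip and Arrdc4) after quantile normalization, after median centring, with only the groups compared and with the globin share, and 3 when A10-FMT replicate 1 alone was kept, with or without Con replicate 1. Transplanted against untransplanted had 1 (Txnip) with a pseudocount of 0.1, quantile normalization, median centring and rescaling without globins. The causes were not tested. The settings with the globin share and with several libraries left out were added after the data were seen, and a lone library of a group is assumed to vary like the others.

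The replicate block changed 1 count, to 2 in the untransplanted comparison (Irs2 at 0.41, adjusted p = 0.0194, beside Txnip). Same-numbered libraries of different groups correlated at -0.39 to 0.57, over 0.1 in 14 of 45 pairs, so the numbers were not taken to pair the libraries.

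Signs turned for fold changes near 0. In STZ-injected against not injected, Insr became 0.0421, 0.0293 and 0.0196 (quantile, median centring, globin share), Irs1 0.0720, 0.0673, 0.0613, 0.000622 and 0.00736 (the same, then rescaling without globins and A10-FMT replicate 1 alone kept) and Foxo3 -0.0834 (globin share). Without 1 library, Insr ran from -0.0761 to 0.00323 and Irs1 from -0.0497 to 0.0433. The interaction of Txnip was -0.0232 with array weights and ran from -0.11 (without Con replicate 3) to 0.45. A filter of 1 RPKM in every library left no value for Irs1, and STZ-injected against not injected already used every group. The number of reads behind each level is not known, and 3 libraries a group limit every comparison.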

Other observations

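The insulin genes themselves, looked at after the values were seen, were listed in some spleen libraries. Ins2 was listed at 0 in all 12 libraries of the 4 untransplanted groups and above 0 in the 6 transplanted libraries, with 0.21, 19.97 and 1.58 RPKM in A10-FMT and 2.26, 1.72 and 0.22 in Con-FMT. The share of all genes split in this way was not computed. Ins1 was above 0 in 4 libraries, with 7.89 and 0.69 RPKM in A10-FMT replicates 2 and 3 and 0.74 and 0.46 in Con-FMT. The highest value of both was in A10-FMT replicate 2, the library with the highest sum of exocrine pancreas markers (16856 RPKM). STZ-A10 libraries had exocrine sums of 4283 to 6531 and Ins2 listed at 0. Con replicate 1, not injected, had a sum of 1598 and Ins2 at 0, whereas Con-FMT replicate 2 had 1246 and Ins2 at 1.72. Of 6 endocrine pancreas markers, Ins1 and Ins2 among them, 4 reached 1 RPKM in A10-FMT, 1 in Con-FMT and 0 in each other group. The near-identical coding sequences of Ins1 and Ins2 can share reads, and the source of these reads was not tested.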
